A study of Mus musculus with 14 samples.

Results

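Expression of 35 nuclear genes for pyruvate oxidation and the citric acid cycle was examined in brown adipose tissue of mice lacking Lrpprc in Ucp1-expressing cells. The genes were taken from a list of symbols, chosen with earlier results of these data known. The list was matched to the Ensembl identifiers of the deposited table. All 35 were found among the 35275 genes of that table. They encode 5 subunits of the pyruvate dehydrogenase complex, 4 pyruvate dehydrogenase kinases, 2 phosphatases, 3 proteins that carry or carboxylate pyruvate, 11 citric acid cycle enzymes, 4 subunits of complex II, 2 NADP-linked isocitrate dehydrogenases and 4 enzymes of the malate-aspartate shuttle and glutamate metabolism. RNA was sequenced from 14 mice of strain C57BL/6 at 8 weeks of age. Knockouts (LrpprcFF Ucp1-Cre) carried floxed Lrpprc alleles and a Cre recombinase driven by the Ucp1 promoter, which deletes Lrpprc only where Ucp1 is expressed, so other cells of the tissue kept the gene. Controls (LrpprcFF) carried the same floxed alleles without Cre. There were 4 knockouts and 4 controls housed at room temperature (22 °C) and 3 knockouts and 3 controls housed at thermoneutrality (30 °C), a temperature at which a mouse needs no extra heat production. Per the labels the cells are brown adipocytes, but RNA was taken from homogenized tissue and no step that isolates cells is given.

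Pyruvate from glycolysis enters mitochondria through the mitochondrial pyruvate carrier and is converted to acetyl-CoA by the pyruvate dehydrogenase complex, which the kinases switch off by phosphorylation and the phosphatases switch on. The citric acid cycle oxidizes acetyl-CoA and passes electrons to the respiratory chain as NADH and, at complex II, directly to ubiquinone. Brown fat burns fatty acids and glucose through these reactions to make heat. LRPPRC is an RNA-binding protein that stabilizes the messenger RNAs of the mitochondrial genome. None of the genes described here is encoded in that genome.

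Libraries held 15.9 to 21.3 M fragments, as read from the spacing of the lowest FPKM values. Each library was scaled to the others over nuclear genes, since mitochondrial transcripts made up 21.8% to 28.5% of the summed FPKM in controls and 2.04% to 5.34% in knockouts. All levels below are scaled FPKM, which are per length of transcript, and all differences are on the log2(scaled FPKM + 1) scale. Lrpprc itself was lower in knockouts at room temperature (log2 fold change -1.86, SE 0.21, adjusted p = 0.000374) and at thermoneutrality (log2 fold change -2.06, SE 0.25, adjusted p = 0.000377), with no overlap between the groups (limma, Benjamini-Hochberg over 13079 genes). Levels of 12 brown adipocyte markers, among them Ucp1, Cidea, Adipoq and the respiratory subunit genes Cox7a1 and Cox8b, were summed. The sums were 20560 to 27200 in room-temperature controls and 16160 to 21440 in room-temperature knockouts. At thermoneutrality they were 15290 to 19050 in controls and 8219 to 9984 in knockouts. A sum gives most weight to abundant genes. At room temperature 5 of the 12 markers were higher and 7 lower in knockouts, and at thermoneutrality 2 were higher and 10 lower. The mean log2 level of the 12 at room temperature overlapped, at 8.13 to 8.61 in controls and 8.19 to 8.71 in knockouts. Macrophage markers summed to 43.8 to 61.5 in room-temperature controls, 73.9 to 222.9 in room-temperature knockouts, 102 to 431 in thermoneutral controls and 690.3 to 2535 in thermoneutral knockouts. Skeletal muscle markers ranged from 24.6 to 14500 between libraries within the thermoneutral controls alone. In tissue of mixed cells, fewer cells of a type and less RNA per cell cannot be told apart. All 6 thermoneutral animals expressed Xist (at least 9.01 FPKM) and had no more than 0.0244 FPKM of the Y-linked Ddx3y, and the 8 room-temperature animals had the reverse pattern, so temperature and sex cannot be told apart. The labels give an identifier per animal, and p-values set group differences against the spread between these animals within the 4 groups.

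At thermoneutrality, 11 of the 35 genes fell in knockout tissue at an adjusted p under 0.05 (limma), against a background of 5.28% of all 13079 genes tested. Pdk3 was above the threshold in the other direction (8.82% of all genes were called higher and 14.1% in either direction), but it passed the filter on low values only through the 3 thermoneutral knockouts, the group in which it was high, so its call is not read as a result. The fallen genes were 6 citric acid cycle enzymes, 3 complex II subunits, the cytosolic malate dehydrogenase Mdh1 and the kinase Pdk2. In 24 of 35 genes every knockout lay below every control, and in 1 (Pdk3) every knockout lay above; these proportions were 14.6% and 22.2% over all genes. The median log2 fold change was -0.52 over the 35 genes and 0.06 over all genes. The summed level of the 35 genes was 9635, 10970 and 10030 scaled FPKM in the 3 controls and 6300, 8681 and 6998 in the 3 knockouts, the same libraries in which brown adipocyte markers were lower and macrophage markers higher, and the part of either in these falls was not tested. Leaving libraries unscaled moved the median over all genes to 0.31, with 7 of the 35 genes called (5 lower, and Pdk3 and Pdp1 higher), and quantile normalization left 4, all lower. Leaving out single animals gave 6 to 13, with 6 without control replicate 2, knockout replicate 1 or knockout replicate 3, and 7 or 8 without either other control. The shares of all genes called in these and the later alternative analyses are not given here. Counts from them are therefore not read as results about the list. All 35 genes passed the filter on low values.

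At room temperature, 0 of 35 genes passed (limma, adjusted p), where the background was 1.97% of all genes, 0.91% higher and 1.06% lower. The unadjusted limma p was below 0.05 for Pdk4, Mpc2, Sdhd, Pdk1 and Pdk3. These were 5 of the 35, against 2060 of all 13079 genes. Every knockout lay below every control in 3 genes (Pdk3, Mpc2 and Sdhb) and above in 0, against 4.53% and 4.85% of all genes. The median log2 fold change of -0.10 depended on the scaling for its sign: it was 0.17 for unscaled FPKM, 0.05 with quantile normalization and 0.02 with equal totals over nuclear genes. With FPKM as deposited 3 genes were called higher (Pdk4, Cs and Idh2), and with equal totals 1 (Pdk4).

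**Figure D1:**
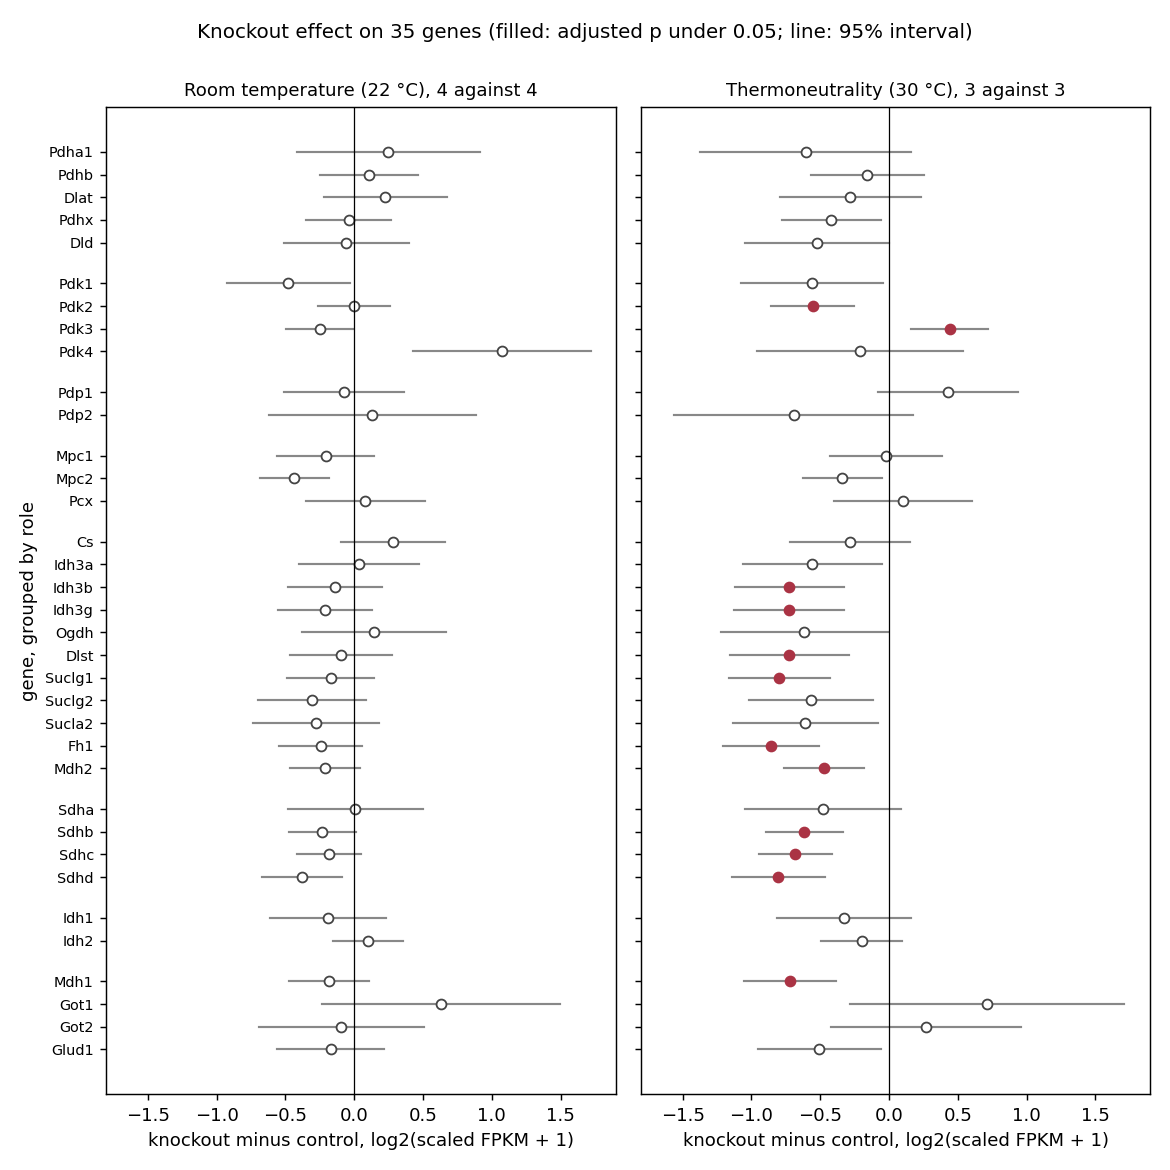
Each circle is the difference between knockout and control means of one gene on the log2(scaled FPKM + 1) scale, with its 95% interval as a line, at room temperature (left) and thermoneutrality (right); filled circles passed an adjusted p under 0.05. At thermoneutrality 30 of 35 circles lie left of 0 and 12 are filled, Pdk3 among them, and at room temperature 23 lie left of 0 and 0 are filled.

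The promoters of these genes were searched for 3 short motifs on both strands: the estrogen-related receptor element TNAAGGTCA, the core of the nuclear respiratory factor 1 site CGCATGCG, and the ATF4 core TGATGCAA. These factors are known regulators of mitochondrial and amino acid genes, which is why their motifs were chosen. RefSeq promoters of 300 bases (GRCm38.p6) were at hand for 32 of the 35 genes, 42 promoters in all. The estrogen-related receptor element was in 1 of the 42 (2.4%; 1.28% of 32851 promoters of the same length), the nuclear respiratory factor 1 core in 2 (4.8%; 1.87%) and the ATF4 core in 1 (2.4%; 0.89%). The matches are shown first, with the motif or its reverse complement in capitals, for Sdhd (chr9:50603800-50603823, minus strand, inside the transcribed part), Ogdh (chr11:6292534-6292561, plus strand, upstream of 2 of its start sites) and Got1 (chr19:43524690-43524717, minus strand, upstream). Both nuclear respiratory factor 1 matches are the same 8 bases in 2 overlapping Ogdh promoters, so 1 of the 32 genes held that core. For Fh1, the gene with the largest fall, the 250 bases before its start held none of the 3 (chr1:175625636-175625885, minus strand). A match says that the letters are present, and the absence of a match says only that they are not in this window.
Sdhd: ggttgtagagTGACCTTGAgccct
Ogdh: aggtgttgtgCGCATGCGtaactcaact
Got1: attgcattggTTGCATCAtacaagcctc
Fh1: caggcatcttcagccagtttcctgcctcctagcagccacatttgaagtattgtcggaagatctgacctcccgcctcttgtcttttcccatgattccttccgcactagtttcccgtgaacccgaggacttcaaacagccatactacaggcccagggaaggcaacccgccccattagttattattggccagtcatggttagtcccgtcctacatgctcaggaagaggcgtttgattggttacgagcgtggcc

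The citric acid cycle enzymes had lower means in thermoneutral knockouts in all 11 cases (10 with FPKM as deposited or quantile normalization, where Cs changed sign), and 6 of the 11 passed the test. With FPKM as deposited 2 of the 11 passed (Suclg1 and Fh1), with quantile normalization 1 (Fh1) and with equal totals over nuclear genes 3 (Idh3g, Suclg1 and Fh1). Fumarase, encoded by Fh1 and converting fumarate to malate, had 201, 241 and 217 scaled FPKM in the 3 thermoneutral controls and 106, 137 and 120.4 in the 3 knockouts. All knockouts were well below the lowest control, with an average of 55.1% of the control level (log2 fold change -0.86, SE 0.16, adjusted p = 0.00526; limma). Suclg1, the subunit shared by both succinyl-CoA synthetases, had 302, 373 and 330.4 in controls and 155, 257 and 177 in knockouts. The groups were apart here too, although the second knockout came closest to the controls (log2 fold change -0.80, SE 0.17, adjusted p = 0.00945; limma).

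NAD-linked isocitrate dehydrogenase is built from 1 catalytic and 2 regulatory subunit genes. The regulatory subunit Idh3g had 409, 481 and 449.8 scaled FPKM in thermoneutral controls and 237, 298 and 275 in knockouts. The other regulatory subunit, Idh3b, had 628, 713 and 668 in controls and 341, 491 and 396 in knockouts. Neither gene's groups overlapped, and both passed (Idh3g log2 fold change -0.73, SE 0.18, adjusted p = 0.0199; Idh3b log2 fold change -0.72, SE 0.18, adjusted p = 0.0199; limma). The Idh3g call was lost in 6 and the Idh3b call in 7 of 15 alternative analyses, both with FPKM as deposited and with quantile normalization among them. The catalytic subunit Idh3a had 383, 462 and 441 in controls and 231, 401 and 263 in knockouts. Its second knockout overlapped the controls, and the difference of -0.56 did not pass (limma adjusted p = 0.137, 95% interval -1.06 to -0.05).

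Dlst, the succinyltransferase core of the 2-oxoglutarate dehydrogenase complex, had 349, 427 and 369.8 scaled FPKM in thermoneutral controls and 192, 305 and 207 in knockouts, which did not overlap (log2 fold change -0.72, SE 0.20, adjusted p = 0.0296; limma). Mitochondrial malate dehydrogenase, Mdh2, had 709, 821 and 723 in controls and 484, 557 and 581 in knockouts, a smaller but non-overlapping fall (log2 fold change -0.47, SE 0.14, adjusted p = 0.0336; limma). Both calls were easily lost, Mdh2 in 11 and Dlst in 10 of 15 alternative analyses, whereas Fh1 was called in all 15. Of the uncalled cycle genes, Ogdh, Suclg2 and Sucla2 had knockout levels entirely below the controls, with differences of -0.62 (adjusted p = 0.17), -0.57 (adjusted p = 0.0911) and -0.61 (adjusted p = 0.118; limma). Citrate synthase, Cs, which forms citrate from acetyl-CoA and oxaloacetate, differed by -0.29 (adjusted p = 0.395; limma), overlapped the controls, and changed sign to 0.01 with FPKM as deposited and 0.02 with quantile normalization.

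At room temperature the same 11 enzymes showed no called change. Fh1 had 308, 276, 224 and 189 scaled FPKM in the 4 controls and 215, 190.3, 211 and 211 in the 4 knockouts. The controls spread widely and covered the narrow knockout range (log2 fold change -0.24, SE 0.14, adjusted p = 0.436; limma). Suclg1 had 454, 429, 346 and 384 in controls and 391, 337, 339.7 and 359.6 in knockouts, again overlapping (log2 fold change -0.17, SE 0.15, adjusted p = 0.62; limma). Over the 11 genes the differences ranged from -0.31 to 0.28, with 8 below 0, and 1 of the 11 was below 0 with FPKM as deposited.

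Complex II oxidizes succinate to fumarate and is both a citric acid cycle enzyme and a member of the respiratory chain. At thermoneutrality all 4 of its subunit genes had knockout levels entirely below control levels, and Sdhb, Sdhc and Sdhd passed the test. The membrane anchor Sdhd, whose promoter match is printed above, had 369, 419 and 399.7 scaled FPKM in controls and 201, 269 and 213 in knockouts. On average the knockouts had 57.6% of the control level (log2 fold change -0.80, SE 0.16, adjusted p = 0.00578; limma). The other anchor, Sdhc, had 119, 154 and 123 in controls and 80.8, 87.3 and 76.7 in knockouts, with a wide gap between the groups (log2 fold change -0.68, SE 0.12, adjusted p = 0.00428; limma). The iron-sulfur subunit Sdhb had 786, 913 and 804 in controls and 469, 646 and 527 in knockouts. It too was separated, with the second knockout nearest to the controls (log2 fold change -0.62, SE 0.13, adjusted p = 0.00895; limma). The flavoprotein Sdha differed by -0.48 and did not pass (adjusted p = 0.256; limma). Sdhc and Sdhd stayed called in each of 15 alternative analyses, and Sdhb was lost in 3.

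At room temperature Sdhd had 678, 594, 532 and 468 scaled FPKM in controls and 440.3, 367, 478 and 450.4 in knockouts. Only the highest knockout overlapped the lowest control, and the difference did not pass (log2 fold change -0.38, SE 0.13, adjusted p = 0.178; limma). Sdhb had 861, 799, 748 and 772 in controls and 723, 625, 713 and 649.7 in knockouts, groups that were apart by a narrow margin, and its difference of -0.23 did not pass either (limma adjusted p = 0.343). Sdhc and Sdha overlapped, with differences of -0.18 and 0.01.

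**Figure D2:**
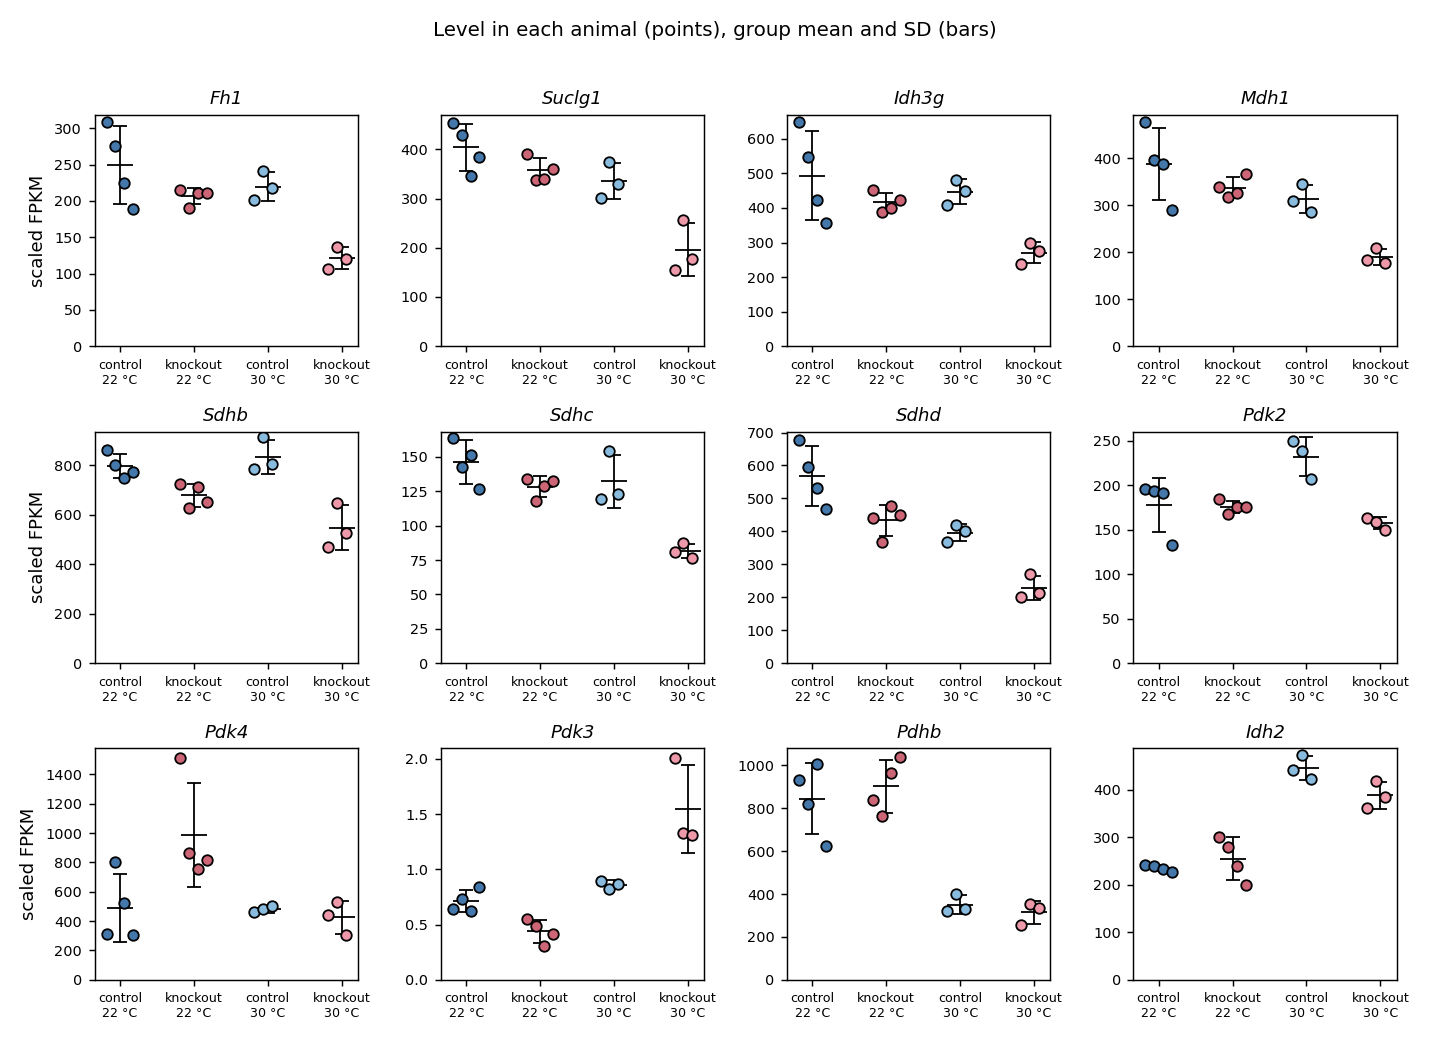
Points are scaled FPKM of single animals for 12 genes, and bars are group means with SD; the vertical axes start at 0. For Fh1, Suclg1, Idh3g, Mdh1, Sdhb, Sdhc, Sdhd and Pdk2 the 3 thermoneutral knockouts lie below the 3 thermoneutral controls, while Pdk3 is higher in thermoneutral knockouts, Pdhb is higher at 22 °C and Idh2 is higher at 30 °C in both genotypes.

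The pyruvate dehydrogenase complex showed no called change between genotypes with the scaling used here. Pdha1 and Pdhb encode the subunits that decarboxylate pyruvate, Dlat the acetyltransferase, Pdhx the protein that binds the shared dihydrolipoamide dehydrogenase, and Dld that dehydrogenase. No subunit passed in either knockout comparison (limma, adjusted p). At an unadjusted p under 0.05 (limma) there were 2 of 5 at thermoneutrality, against 3706 of all 13079 genes. At room temperature there were 0 of 5, against 2060 of all genes. With quantile normalization Pdhx was called lower at thermoneutrality (-0.51, limma adjusted p = 0.0462). Pdhb had 319, 400.3 and 329.7 scaled FPKM in thermoneutral controls and 255, 354 and 336 in knockouts, which overlapped (log2 fold change -0.16, SE 0.19, adjusted p = 0.644; limma). Pdha1, Pdhx and Dld lay entirely below their controls, with differences of -0.61, -0.42 and -0.52, and Dlat, at -0.28, overlapped. The 95% interval of Pdha1 ran from -1.37 to 0.16, so a fall as large as that of Fh1 was within it. At room temperature the 5 differences were between -0.06 and 0.25.

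Of the 4 kinases that inactivate the complex, 1 fell at thermoneutrality (Pdk2). Pdk2, the kinase with the second highest level, had 250.2, 239 and 208 scaled FPKM in thermoneutral controls and 164, 159 and 150.2 in knockouts. It fell, with a clear gap between the groups (log2 fold change -0.55, SE 0.14, adjusted p = 0.0194; limma), but the call was lost in 7 of 15 alternative analyses, including FPKM as deposited (adjusted p = 0.129), quantile normalization (adjusted p = 0.0524) and equal totals over nuclear genes (adjusted p = 0.056). At room temperature it had 195, 194, 192 and 133 in controls and 185, 168, 175 and 176 in knockouts, and the knockouts lay inside the control range (log2 fold change -0.0027, SE 0.12, adjusted p = 0.995; limma).

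Pdk4, the kinase induced by fasting and fatty acid use, had 314, 802, 524 and 308 scaled FPKM in room-temperature controls and 1515, 862, 754 and 814 in knockouts. Of the 4 knockouts, 3 exceeded every control and 1 lay just under the highest control, and the difference did not pass (log2 fold change 1.07, SE 0.30, adjusted p = 0.0882; limma). It was called with FPKM as deposited (adjusted p = 0.00958), with equal totals over nuclear genes (adjusted p = 0.0482) and after leaving out control replicate 2. At thermoneutrality Pdk4 had 459, 481 and 506 in controls and 439, 534 and 308 in knockouts, with no such difference (log2 fold change -0.21, SE 0.35, adjusted p = 0.744; limma). Within a library, which makes the scaling irrelevant, the ratio of Pdk4 to Pdk2 was 5.57 ± 1.79 (SD, n = 4) in room-temperature knockouts and 2.70 ± 1.07 (n = 4) in controls. The highest control ratio (4.14) was below the lowest knockout ratio (4.30). An exact permutation test, two-sided, gave p = 0.0286, the smallest that 4 against 4 allows, and 0.1 after Benjamini-Hochberg adjustment over 7 ratios.

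Pdk1, a kinase known as a target of hypoxia signalling, had 43.6, 34.6, 29.4 and 20.65 scaled FPKM in room-temperature controls and 16.02, 20.60, 23.7 and 29.6 in knockouts. Of the 4 knockouts, 2 were below every control and the other two lay within the control range (log2 fold change -0.48, SE 0.21, adjusted p = 0.28; limma). At thermoneutrality it had 16.3, 12.6 and 15.1 in controls and 10.1, 10.2 and 8.51 in knockouts. The thermoneutral groups were apart, and the difference did not pass (log2 fold change -0.56, SE 0.24, adjusted p = 0.144; limma).

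Pdk3 was the scarcest kinase, and its thermoneutral values are given as a description. It had 0.896, 0.819 and 0.871 scaled FPKM in thermoneutral controls and 2.01, 1.33 and 1.31 in knockouts. The first knockout was highest and all 3 were above every control, with a difference of 0.44 (SE 0.13). At room temperature it had 0.645, 0.731, 0.627 and 0.844 in controls and 0.553, 0.485, 0.309 and 0.411 in knockouts, and all knockouts were below all controls (log2 fold change -0.25, SE 0.11, adjusted p = 0.302; limma, not passed). These values correspond to about 11 to 101 reads per library on its longest transcript of 2115 bases, and the difference fell short of the threshold in 7 of the 11 alternative analyses in which the gene passed the filter, among them the pseudocount of 0.1 and the omission of each control in turn. Among the thermoneutral knockouts, the first also had the highest sum of macrophage markers (2535, against 690.3 and 969.5 in the other two), and the part of other cell types in the Pdk3 level was not tested.

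Of the 2 phosphatases, Pdp2 differed by -0.69 at thermoneutrality (adjusted p = 0.29) with groups that were apart, and Pdp1 by 0.43 with groups that overlapped (adjusted p = 0.259; limma). With FPKM as deposited Pdp1 was called higher (0.65, limma adjusted p = 0.0496). Pdp1 was near the low end of detection, at 1.33 to 3.79 scaled FPKM. At room temperature the differences were 0.13 for Pdp2 and -0.07 for Pdp1.

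The mitochondrial pyruvate carrier is formed by Mpc1 and Mpc2. Mpc2 had 214, 191, 164 and 195 scaled FPKM in room-temperature controls and 154, 117, 153 and 139.9 in knockouts. All knockouts were below all controls, but the difference did not pass (log2 fold change -0.44, SE 0.12, adjusted p = 0.0768; limma). At thermoneutrality it had 85.8, 101 and 84.4 in controls and 65.2, 78.3 and 70.4 in knockouts, also apart and also not passed (log2 fold change -0.34, SE 0.13, adjusted p = 0.113; limma). Mpc1 is uncertain, since a copy in the table, Mpc1-ps, matches its transcript at 100% over 261 bases and was listed at 48.04 to 212 FPKM, above Mpc1 itself in every library. Mpc1 differed by -0.21 at room temperature and -0.03 at thermoneutrality, neither passing. Pyruvate carboxylase, Pcx, which makes oxaloacetate from pyruvate, differed by 0.08 and 0.10.

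Among the linked enzymes, cytosolic malate dehydrogenase was the one that fell. Mdh1 had 309, 345 and 286 scaled FPKM in thermoneutral controls and 183, 210 and 176 in knockouts, with no overlap (log2 fold change -0.72, SE 0.16, adjusted p = 0.0097; limma). At room temperature it had 477, 397, 388 and 291 in controls and 339.9, 317, 326 and 367 in knockouts, which overlapped (log2 fold change -0.18, SE 0.13, adjusted p = 0.56; limma). Its ratio to Mdh2 within a library was 0.353 ± 0.043 (SD, n = 3) in thermoneutral knockouts and 0.417 ± 0.021 (n = 3) in controls, and these did not overlap; the exact two-sided permutation p was 0.1, the smallest that 3 against 3 allows.

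Got1 and Got2 are the cytosolic and mitochondrial aspartate aminotransferases. Got1 had 15.2, 12.7, 35.4 and 23.3 scaled FPKM in room-temperature controls and 60.2, 34.9, 19.8 and 23.7 in knockouts, with overlap, and its difference of 0.63 did not pass (limma adjusted p = 0.484). The ratio of Got1 to Got2 was 1.55 ± 0.96 (SD, n = 4) in these knockouts and 0.819 ± 0.047 (n = 4) in controls. Every knockout ratio was above every control ratio, with an exact two-sided permutation p of 0.0286 that became 0.1 after Benjamini-Hochberg adjustment over 7 ratios. Skeletal muscle markers ran with both genes in some libraries and against Got1 in another. Room-temperature control replicate 3 had the highest muscle marker sum of its group (7189, against 469 to 4190 in the others) and the highest Got1 and Got2 of that group, and thermoneutral control replicate 3 had the lowest sum of all (24.6) and the lowest Got1 and Got2 of the 6 thermoneutral animals. In the room-temperature knockouts the order was the reverse at one end: replicate 1 had the highest Got1 (60.2) and the lowest muscle sum of its group (569, against 1075 to 1474). The part of muscle in these levels was not tested. With a muscle marker score as a covariate, an analysis chosen after seeing the data, 9 genes were called lower at thermoneutrality, all among the 11 above, and Dlst and Mdh2 were not. How many of all genes were called with this covariate is not given here. Glutamate dehydrogenase, Glud1, and the NADP-linked isocitrate dehydrogenases Idh1 and Idh2 did not pass in either knockout comparison; their thermoneutral differences were -0.51, -0.33 and -0.20.

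The room-temperature controls were not uniform, and 2 of the 4 had identifiers beginning with R where all other animals had E. Replicate 4, one of the R animals, had the lowest level of the 4 controls in 26 of the 35 genes, and replicate 1 the highest in 25. Pdha1 shows the spread, at 575, 491, 454 and 172 scaled FPKM in the 4 controls, against 393, 413, 501 and 542 in the knockouts. For 72 nuclear genes of the other respiratory complexes replicate 4 was the lowest control in 12, and replicate 3 in 38. Without both R controls, 3 of the 35 genes were called at room temperature, all lower (Suclg2, Sucla2 and Glud1), and the median was -0.31. The share of all genes called in this refit is not given here, so the count is not read as a result about the list.

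The difference between the knockout effects at the 2 temperatures was tested directly. For 28 of 35 genes the room-temperature effect was the higher one, with a median difference of 0.42 log2 units against -0.05 over all genes. None of the 35 passed (limma adjusted p), nor did any gene of the table (0%). At an unadjusted p under 0.05 there were 10 of the 35 genes, or 28.6%, against 13% of all genes. They were Pdk2, Pdk3, Pdk4, Idh3b, Dlst, Suclg1, Fh1, Sdhb, Sdhc and Mdh1, of which Pdk3 carries the limit of the filter given above. For Fh1 the difference was 0.61 (95% interval 0.15 to 1.08, adjusted p = 0.262), and for Pdk4 1.28 (95% interval 0.29 to 2.27, adjusted p = 0.269; limma). Without the R controls the median difference was 0.21.

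Within each genotype, room temperature was compared with thermoneutrality, a contrast in which sex-linked expression changed as well. In controls 12 of 35 genes passed, 34.3% against 38.8% of all genes, so the list as a whole was near the background. Of these 9 were higher at room temperature (18.2% of all genes) and 3 lower (20.6%). The higher ones were Pdhb, Dlat, Pdhx, Dld, Pdk1, Mpc1, Mpc2, Sdhd and Idh1, and the lower ones Pdk2, Idh2 and Got2. Pdhb, at 931, 818, 1005 and 623 scaled FPKM in room-temperature controls, was far above the thermoneutral controls given earlier (log2 fold change 1.25, SE 0.18, adjusted p = 0.000499; limma). Mpc2 rose in the same way (log2 fold change 1.07, SE 0.13, adjusted p = 0.000194; limma). In controls 1 of the 11 citric acid cycle enzymes had an unadjusted p under 0.05 (limma), against 6370 of all 13079 genes. None of the 11 passed (limma, adjusted p), with differences between -0.09 and 0.50. Leaving out the R controls changed this: 23 of 35 genes were then called, 7 of them cycle enzymes, and 19 were called without replicate 4 alone. Without thermoneutral control replicate 1 the count was 7. The share of all genes called in these refits is not given here, so the counts are not read as a result about the list.

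In knockouts 30 of 35 genes passed, 85.7% against 51.1% of all genes. Of these 27 were higher at room temperature (21.8% of all genes) and 3 lower (29.4%). All 5 pyruvate dehydrogenase subunits, all 11 citric acid cycle enzymes and all 4 complex II subunits were higher, by 1.18 to 1.71, 0.35 to 1.09 and 0.32 to 0.93 log2 units. Pdha1 had 393, 413, 501 and 542 scaled FPKM in room-temperature knockouts and 110, 199 and 122 in thermoneutral knockouts, the largest difference of the list (log2 fold change 1.71, SE 0.33, adjusted p = 0.00115; limma). Pdha1, Idh3g and Pdk3 lie on the X chromosome, and sex differed along with temperature. The lower genes were Idh2, Got2 and Pdk3, the last with the filter limit given above. Idh2, the mitochondrial NADP-linked enzyme, had 242, 239.9, 232 and 227 in room-temperature controls and 442, 474 and 422 in thermoneutral controls. The corresponding knockouts had 302, 279.5, 240.4 and 199.5 and 362, 418 and 385. The 2 temperatures did not overlap in either genotype (controls log2 fold change -0.92, SE 0.13, adjusted p = 0.000467; knockouts log2 fold change -0.62, SE 0.13, adjusted p = 0.00165; limma). Mpc1-ps followed the same temperature contrast as Mpc1, with log2 fold changes of 1.70 in controls and 1.61 in knockouts.

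**Figure D3:**
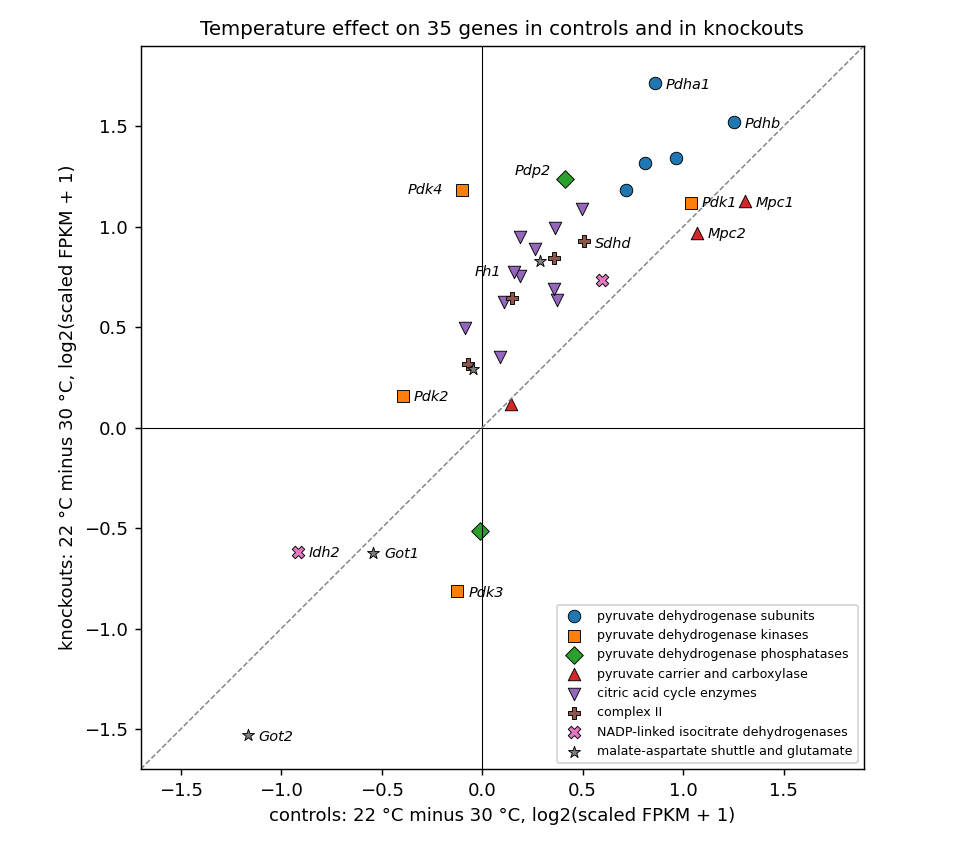
Each symbol is one gene, with the difference between 22 °C and 30 °C in controls on the horizontal axis and in knockouts on the vertical axis, both on the log2(scaled FPKM + 1) scale; the dashed line marks equal differences. The citric acid cycle enzymes lie at -0.09 to 0.50 on the horizontal axis and 0.35 to 1.09 on the vertical axis, and Pdk4 lies at -0.10 and 1.18.

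The list was also set beside 72 nuclear genes for subunits of complexes I, III, IV and V, which share the mitochondrion with it. At thermoneutrality 59 of the 72 fell, with a median of -0.64, against 11 of 35 and -0.52 here and 5.28% of all genes. At room temperature 15 of the 72 fell, with a median of -0.35, against 0 of 35 and -0.10 here and 1.06% of all genes. The summed level of the 35 genes as a percentage of that of the 72 needs no scaling between libraries. It was 27.2%, 27.2%, 24.9% and 16.2% in room-temperature controls and 28.5%, 31.1%, 27.1% and 31.7% in knockouts. The groups overlapped narrowly, and control replicate 4 was far below the others. At thermoneutrality it was 22.6%, 22.0% and 21.7% in controls and 24.3%, 27.6% and 25.1% in knockouts, with every knockout above every control. No test was made of these sums.

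**Figure D4:**
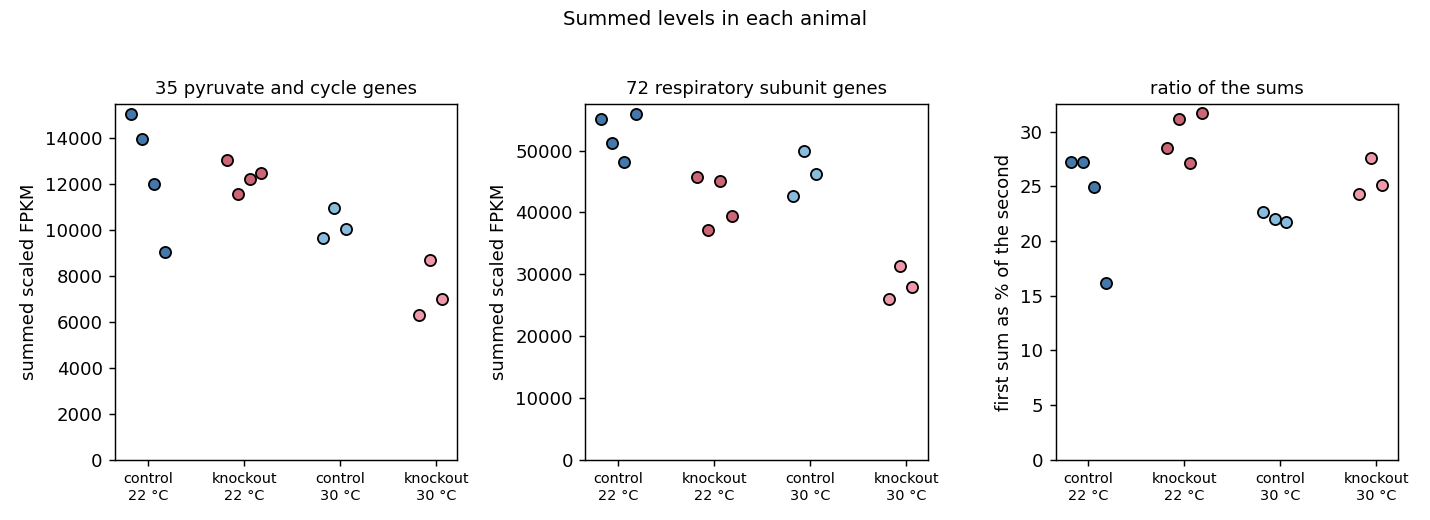
Points are single animals: the summed scaled FPKM of the 35 genes (left), that of 72 respiratory subunit genes (middle) and the first as a percentage of the second (right), with axes starting at 0. The third panel shows thermoneutral knockouts at 24.3% to 27.6% and thermoneutral controls at 21.7% to 22.6%.

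A further 39 genes of the pathway, outside the 35, were listed for cofactors, carriers, regulators and side branches, and 37 of them were tested. At thermoneutrality 8 fell and 2 rose, 27.0% called against 14.1% of all genes (5.28% lower and 8.82% higher). Among the falls were Me3, a mitochondrial malic enzyme (-0.65, adjusted p = 0.0297), Ldhb, a lactate dehydrogenase subunit (-0.62, adjusted p = 0.0147), the deacetylase Sirt3 (-0.55, adjusted p = 0.0343) and the 2-oxoglutarate carrier Slc25a11 (-0.49, adjusted p = 0.00891; limma, log2 fold changes). Me2, another malic enzyme, rose (0.50, adjusted p = 0.049; limma). At room temperature 1 of the 37 was called, 2.7% and near the 1.97% of all genes. It was Pck2, the mitochondrial phosphoenolpyruvate carboxykinase, which rose (log2 fold change 1.07, SE 0.25, adjusted p = 0.0476; limma). Its thermoneutral difference was 0.66 and did not pass (adjusted p = 0.153; limma).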

How the data were processed

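Gene expression was measured by RNA sequencing in 14 mice. The authors deposited 1 table of FPKM (fragments per kilobase and per M mapped), with a column for each animal. Per the submitters' processing notes the build was mm9, while the aligner, counting tool, annotation and use of strand are not given in the sources used here. Symbols came from GENCODE M21 (34490 of 35275 identifiers matched).

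Genes with at least 1 FPKM in at least 3 samples (13079) were kept. Each library was divided by its median ratio to the geometric mean over 10049 nuclear genes (factors 0.823 to 0.947 in controls, 1.05 to 1.2 in knockouts). A mean for each of 4 groups was fitted to log2(scaled FPKM + 1) by lmFit and eBayes with trend (limma 3.58.1 in R 4.3.3), with Benjamini-Hochberg adjustment over all genes and a threshold of 0.05. Folds of scarce genes are understated by the pseudocount of 1. The fit was tested on simulated data.

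Depth came from FPKM steps of genes with 1 transcript (92% to 93.6% of low values within 0.1 of whole reads). Counting error only is covered by read numbers. The 7 ratios were tested by exact permutation. Copies were sought with blastn 2.17.0 at 95% identity over 100 bases. Members and lists were chosen with earlier results of these data known. Values per animal are given for genes called in a knockout comparison, the kinases and genes apart in opposite directions, and others after their values were seen. Alternatives covered pseudocount, filter, scaling, fitted groups, trend, R-identifier controls and single animals; a muscle score was added after seeing the data. Some genes of the wider pathway list are not reported here.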

Additional observations from a re-analysis of the deposited data

Results flagged for a closer look

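Pdk3 drew attention because its knockouts moved in opposite directions at the 2 temperatures. The gene lies on the X chromosome, and temperature and sex cannot be told apart here. At room temperature all 4 knockouts (0.310 to 0.554 scaled FPKM) were below all 4 controls (0.627 to 0.844), and at thermoneutrality all 3 knockouts (1.31 to 2.01) were above all 3 controls (0.819 to 0.896). The difference between the knockout effects was tested and did not pass (-0.69 on the log2(scaled FPKM + 1) scale, limma unadjusted p = 0.00144, adjusted p = 0.185). Pdk3 passed the filter on low values only through the thermoneutral knockouts, so these values are a description. Replicate 4 was the lowest room-temperature control in 26 of the 35 genes, Pdk2 among them. Its Pdk2 level was 133 scaled FPKM, against a group median of 193 and a maximum of 195. The rule for outlying values in groups of 4 flagged 0 values.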

How the results depend on the processing

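No paired analysis was possible because the animal identifiers pair no samples. At room temperature, the count of called genes among the 35 (0) was 3 with FPKM as deposited, 1 with equal totals over nuclear genes, 3 without the controls with R identifiers, and 0 to 1 when single animals were left out (1, Pdk4, without control replicate 2). At thermoneutrality the count of 12 (11 lower, and Pdk3) was 7 with FPKM as deposited (6 of them among the 12), 4 with quantile normalization (3 among the 12) and 6 to 13 when single animals were left out: 6 without control replicate 2, knockout replicate 1 or knockout replicate 3, 7 without control replicate 3 and 8 without control replicate 1. Fh1, Sdhc and Sdhd were called in all 15 alternatives, Mdh1 in all but quantile normalization. For the difference between temperatures the count was 0 to 1 (1, Suclg1, without thermoneutral knockout replicate 2). The temperature contrast gave 23 in controls without the R identifiers and 7 to 19 with single animals left out (7 without thermoneutral control replicate 1, 19 without room-temperature control replicate 4), against 12. In knockouts it gave 22 to 30 with single animals left out, against 30. The shares of all genes called under these alternatives are not given here. Reversed ratios were all near 0: without the R controls the log2 ratio of Suclg2 to Sucla2 at room temperature was 0.0498 and of Mdh1 to Mdh2 -0.0473. With single animals left out these ran from -0.0792 to 0.0683 and from -0.0497 to 0.0735, and at thermoneutrality Suclg2 to Sucla2 ran from -0.0258 to 0.0927 and Pdk1 to Pdk2 from -0.176 to 0.0529. Apart from the smaller groups of the animals left out, the cause was not tested. Depth limits Pdk3 and Pdp1, at 11 to 101 and 94 to 378 reads per library.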
